A study of Astatotilapia calliptera with 66 samples.

Results

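The genes of heme synthesis were examined in the livers of wild *Astatotilapia calliptera*, a cichlid that has split into a deep-water benthic and a shallow-water littoral ecomorph in the crater Lake Masoko, and whose riverine relatives live in the neighbouring river system. Members were chosen by name: the table was searched for 9 symbols of the pathway, each also with the suffix a or b, and 6 were listed (*alas1*, *alad*, *uros*, *urod*, *ppox* and *fech*) among 29676 genes by symbol. The erythroid synthase *alas2*, and *hmbs* and *cpox*, were not analysed here. RNA came from the homogenized liver of 13 adult wild-caught males, 1 liver per fish: 5 benthic, 4 littoral and 4 riverine. No treatment, transgene or mutation was involved, so populations differed in origin and habitat at the same time. They also differed in capture, as divers netted the lake fish and local fishermen caught the riverine fish.

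Heme is an iron-bearing ring that serves as the oxygen-binding group of globins and as the working centre of cytochromes, catalase and many liver oxidases. Its synthesis begins and ends in the mitochondrion, with the middle steps in the cytosol, and the first enzyme sets the pace of the pathway in liver, where heme itself represses it. Liver and developing red blood cells are the main sites of heme synthesis in vertebrates, and a piece of liver holds blood as well as hepatocytes.

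Levels are given as TPM, a transcript's share of the library after its length is allowed for, so that values can be compared between genes. The livers are numbered within each population in the order of the labels. Each label holds a number that takes a pair of values over these livers, and this number was read as the sequencing run. The labels do not call it a run, so a run here means the livers that share a number. The first run held the riverine livers, 4 in number, together with littoral liver 1. The second run held the 5 benthic livers together with littoral livers 2 to 4. Benthic and riverine livers share no run, so population and run cannot be told apart between them. The number of genes with a level above 0 was 22938 to 24012 in benthic, 20576 to 22900 in littoral and 19921 to 21946 in riverine livers, so that benthic livers did not overlap with either of the others. Hepatocyte markers were high in every liver, with sums of 18641 to 36029 TPM in benthic, 21793 to 37823 TPM in littoral and 21188 to 36017 TPM in riverine livers. Of 17 exocrine pancreas symbols sought, 2 were listed, *cpb1* and *pla2g1b*. Their sum was 144 to 847 TPM in benthic, 514 to 1964 TPM in littoral and 194 to 2441 TPM in riverine livers. Samples thus differed in pancreas RNA, and its part in the differences below was not tested.

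All 6 members were detected in all 13 livers, and all 6 were above the lower limit of 0.1 TPM set on the mean over livers. Differences are log2 fold changes of TPM + 0.1 from a single limma fit of the 3 populations over 21147 genes. The p-values of each comparison were adjusted by the method of Benjamini and Hochberg, and a gene is said to have passed where the adjusted p was under 0.05. No member passed in any of the 3 comparisons. The values below therefore describe how the genes were set against each other and across livers, and how wide the intervals of the differences were.

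Of the 6 members, *alas1* had the highest mean. It encodes the housekeeping aminolevulinate synthase that joins glycine and succinyl-CoA in the first step. *alas1* was the most abundant member in 12 of 13 livers, with a mean of 22.4 ± 8.11 TPM (SD, n = 13) that lay at the 90.2 percentile of the genes tested. *alad*, which joins a pair of aminolevulinate molecules into porphobilinogen, followed with a mean of 11.3 ± 3.54 TPM. *ppox*, the mitochondrial protoporphyrinogen oxidase, averaged 8.89 ± 3.52 TPM. *urod*, which removes carboxyl groups from uroporphyrinogen, averaged 6.20 ± 2.16 TPM. *uros*, which closes the porphyrin ring, averaged 4.48 ± 1.65 TPM. *fech*, the ferrochelatase that inserts iron in the last step, was the lowest member in all 13 livers, with a mean of 1.49 ± 0.8293 TPM at the 47.6 percentile. Among neighbours in this order only *uros* and *fech* kept their places in every liver. *alas1* exceeded *alad* in 12 livers, *alad* exceeded *ppox* in 9, *ppox* exceeded *urod* in 10 and *urod* exceeded *uros* in 10, and the ranges of each pair overlapped.

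Within populations the members varied less than most of the genes tested. On the log2 scale, the SD within populations was 0.43 for both *alas1* and *alad*, 0.44 for *urod*, 0.49 for *ppox*, 0.50 for *uros* and 0.57 for *fech*. These lay between the 12.2 and the 29.2 percentile of all genes tested, *fech* being the most variable of the 6. The genes tested reach down to a mean of 0.1 TPM, whereas the members' means lay between the 47.6 and the 90.2 percentile. No comparison with genes of like level was made.

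*alas1* was 20.5, 15.9, 19.1, 19.9 and 14.9 TPM in benthic livers 1 to 5. It was 36.1, 31.6, 34.9 and 16.6 TPM in littoral livers 1 to 4, and 22.0, 14.6, 14.3 and 31.5 TPM in riverine livers 1 to 4. Littoral livers 1 to 3 were the highest of all, with riverine liver 4 just below them, while the benthic livers formed the tightest group and lay within the riverine range. Benthic livers averaged 18.1 ± 2.53 TPM (n = 5), littoral livers 29.8 ± 9.02 TPM (n = 4) and riverine livers 20.6 ± 8.08 TPM (n = 4).

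*alad* was 7.41, 9.70, 5.74, 13.5 and 16.0 TPM in benthic livers 1 to 5. It was 17.1, 15.3, 10.6 and 13.4 TPM in littoral livers 1 to 4, and 8.24, 8.65, 12.1 and 9.66 TPM in riverine livers 1 to 4. The benthic livers spanned nearly the whole range of the series, with a 2.79-fold spread.

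*uros* was 3.23, 8.26, 5.08, 3.18 and 6.30 TPM in benthic livers 1 to 5. It was 3.76, 5.93, 4.53 and 3.83 TPM in littoral livers 1 to 4, and 2.12, 5.12, 3.13 and 3.82 TPM in riverine livers 1 to 4. All 3 populations overlapped, and the highest values were those of benthic livers 2 and 5.

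*urod* was 3.67, 5.90, 3.37, 6.76 and 8.85 TPM in benthic livers 1 to 5. It was 9.84, 9.68, 6.35 and 6.28 TPM in littoral livers 1 to 4, and 3.73, 4.90, 5.75 and 5.47 TPM in riverine livers 1 to 4. Every littoral liver was above every riverine liver, and the benthic livers overlapped with both.

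*ppox* was 9.32, 12.7, 11.8, 9.13 and 15.6 TPM in benthic livers 1 to 5. It was 5.01, 9.90, 11.1 and 7.85 TPM in littoral livers 1 to 4, and 3.57, 6.99, 3.67 and 8.97 TPM in riverine livers 1 to 4. Every benthic liver was above every riverine liver, though benthic liver 4 and riverine liver 4 were close together, and the littoral livers overlapped with both.

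*fech* was 0.899, 2.75, 1.31, 1.95 and 3.50 TPM in benthic livers 1 to 5. It was 1.67, 1.08, 0.989 and 1.38 TPM in littoral livers 1 to 4, and 0.551, 1.01, 1.38 and 0.826 TPM in riverine livers 1 to 4. Benthic livers 2 and 5 stood well above the others, while benthic livers 1 and 3 were within the riverine range.

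**Figure D1:**
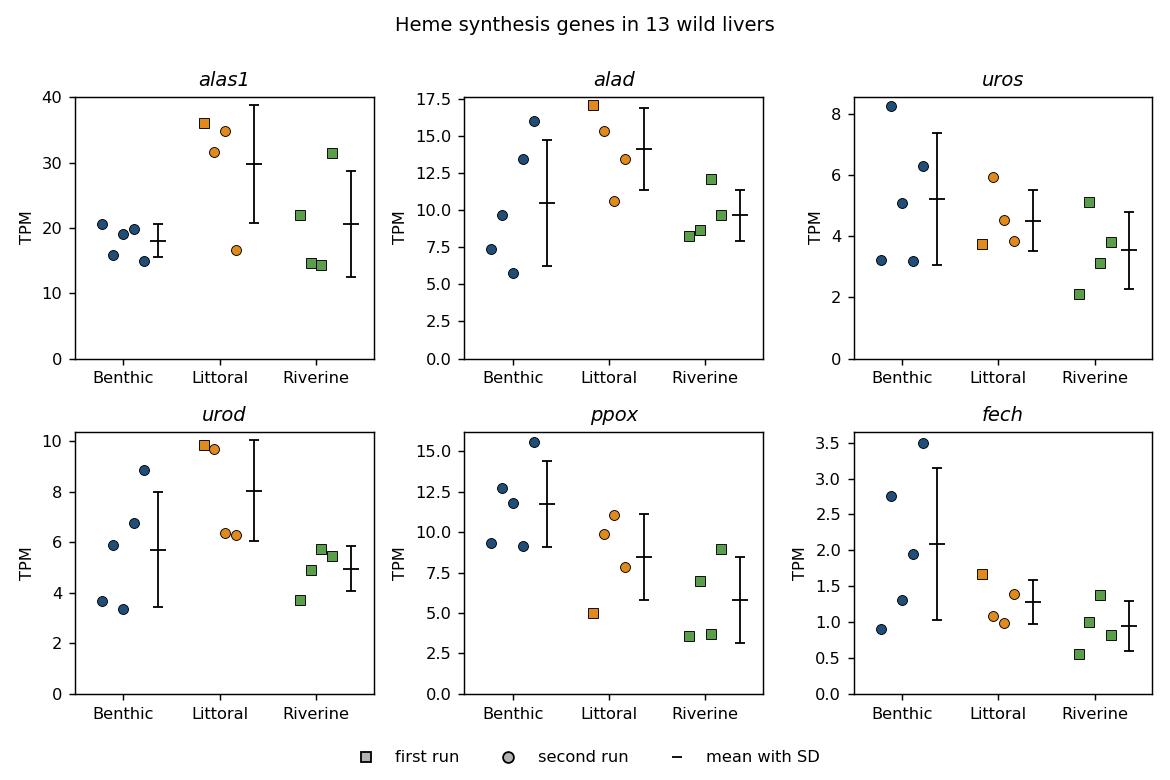
Level of each of the 6 heme synthesis genes (y axis, TPM) in benthic, littoral and riverine livers (x axis), 1 point per liver, squares for the first run and circles for the second run, with the mean and SD of each population as a bar. The benthic livers are above all riverine livers for *ppox*, the littoral livers are above all riverine livers for *urod*, and the populations otherwise overlap.

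Benthic livers were set against riverine livers to compare the deep-water ecomorph with the river population. The last steps, *ppox* and *fech*, had the larger log2 fold changes. *ppox* averaged 11.7 ± 2.66 TPM in benthic livers and 5.799 ± 2.64 TPM in riverine livers, and *fech* 2.08 ± 1.06 TPM in benthic livers and 0.942 ± 0.348 TPM in riverine livers (SD, n = 5 and 4). Neither passed. The log2 fold change of *ppox* was 1.08 (95% interval 0.35 to 1.822, p = 0.00709, adjusted p = 0.056), and that of *fech* 0.98 (0.10 to 1.87, p = 0.0322, adjusted p = 0.119). *alas1* had a log2 fold change of -0.12 (-0.78 to 0.53, adjusted p = 0.803), *alad* of 0.034 (-0.64 to 0.70, adjusted p = 0.952), *urod* of 0.13 (-0.57 to 0.82, adjusted p = 0.811) and *uros* of 0.51 (-0.25 to 1.28, adjusted p = 0.321). For *alas1* in TPM as deposited, a benthic level above 1.45 times or below 0.583 times that of riverine livers was outside the interval. The log2 fold change of *alas1* was -0.72 with median-of-ratios scaling between livers and 0.33 with run as a covariate, so these bounds hold for the main fit only.

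Of the 6 members, 0 passed (limma), whereas 11.2% of all genes tested passed in this comparison (9.66% higher and 1.49% lower in benthic livers). At an unadjusted p under 0.05 the members counted were 2 (*ppox* and *fech*), and 32.8% of all genes met that threshold. Livers did not overlap for 1 member, *ppox*, and for 16.7% of all genes (14.2% higher and 2.52% lower). The log2 fold change was above 0 for 5 of 6 members and for 75.8% of all genes. The genes as a whole leaned towards benthic livers, with a median log2 fold change of 0.62, and the members' median was 0.32. Benthic livers also had more genes above 0 than riverine livers (22938 to 24012 against 19921 to 21946), and the part of this in the lean was not tested. Relative to the median of all genes, *ppox* was 0.47 higher and *fech* 0.37 higher, while *alas1* fell short by a log2 difference of -0.74, *alad* of -0.58, *urod* of -0.49 and *uros* of -0.10. With median-of-ratios scaling between livers, which brings the median of all genes to 0.13, *ppox* had a log2 fold change of 0.49 and *alas1* of -0.72, and *alad* (-0.57), *urod* (-0.47) and *uros* (-0.074) were below 0. On that scale benthic and riverine livers overlapped in *ppox*, at 8.50 to 11.8 in benthic livers and 4.95 to 12.1 in riverine livers.

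The *ppox* levels also followed the sequencing run. The 5 livers of the first run had 3.57 to 8.97 TPM and the 8 livers of the second run had 7.85 to 15.6 TPM, and littoral liver 1, the littoral liver of the first run, had less *ppox* (5.01 TPM) than the other littoral livers (7.85 to 11.1 TPM). Only the littoral livers were split between the runs, so a covariate for run rests on littoral liver 1 against the other littoral livers. It cannot separate run from population between benthic and riverine livers. With run as a covariate the benthic–riverine log2 fold change of *ppox* was 0.17 (SE 0.62, adjusted p = 0.928), and over all alternatives its adjusted p ranged between 0.0377 and 0.928. It passed when littoral liver 1 (adjusted p = 0.0377) or riverine liver 2 (adjusted p = 0.044) was left out. *fech* was higher in littoral liver 1 than in the other littoral livers, and its log2 fold change was 1.49 (SE 0.81, adjusted p = 0.415) with run as a covariate.

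Littoral livers were set against riverine livers to compare the shallow-water ecomorph with the same river population. All 6 members had higher means in littoral livers, by similar amounts, and the log2 fold changes stayed above 0 except that of *fech* with quantile normalization (-0.084) and that of *ppox* with run as a covariate (-0.096). The log2 fold change was 0.67 for *urod* (95% interval -0.07 to 1.41, adjusted p = 0.309), 0.59 for *ppox* (adjusted p = 0.401), 0.54 for both *alas1* (adjusted p = 0.381) and *alad* (adjusted p = 0.397), 0.44 for *fech* (adjusted p = 0.593) and 0.38 for *uros* (adjusted p = 0.59). Since 70.1% of all genes tested also had a log2 fold change above 0, with a median of 0.40, the members (median 0.54) were close to the genes at large. Of the 6 members, 0 passed, whereas 1.46% of all genes tested passed (0.998% higher and 0.459% lower in littoral livers), and 0 members had an unadjusted p under 0.05, against 18.9% of all genes. Livers did not overlap for 1 member, *urod* (8.04 ± 1.99 TPM in littoral and 4.96 ± 0.897 TPM in riverine livers, n = 4 each), and for 9.63% of all genes (7.9% higher and 1.73% lower). With median-of-ratios scaling the livers overlapped in *urod*, at 5.13 to 14.9 in littoral livers and 4.64 to 7.75 in riverine livers. In the first run, the single littoral liver had more *urod* (9.84 TPM) than the 4 riverine livers (3.73 to 5.75 TPM), and in the second run no riverine liver was sequenced.

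Benthic livers were then set against littoral livers, the comparison within the lake. *alas1*, *alad* and *urod* had lower means in benthic livers, though none passed: the log2 fold change was -0.67 for *alas1* (95% interval -1.32 to -0.011, p = 0.0467, adjusted p = 0.453), -0.50 for *alad* (-1.17 to 0.17, adjusted p = 0.582) and -0.54 for *urod* (-1.24 to 0.15, adjusted p = 0.568). *ppox* had a log2 fold change of 0.50 (-0.24 to 1.23, adjusted p = 0.616), *fech* of 0.54 (-0.35 to 1.42, adjusted p = 0.651) and *uros* of 0.13 (-0.63 to 0.89, adjusted p = 0.913). Of the 6 members, 0 passed, whereas 0.359% of all genes tested passed (0.312% higher and 0.0473% lower in benthic livers), and 1 member, *alas1*, had an unadjusted p under 0.05, against 10.9% of all genes. No member had livers that did not overlap, against 4.01% of all genes (3.07% higher and 0.936% lower). The log2 fold change was above 0 for 3 of 6 members and for 63.1% of all genes. This comparison can be made within a single run, and among the livers of the second run alone the log2 fold change was -0.55 for *alas1* (adjusted p = 0.514), 0.27 for *ppox* (adjusted p = 0.73) and 0.67 for *fech* (adjusted p = 0.633). Benthic and littoral livers of that run overlapped in *ppox*, with 9.13 to 15.6 TPM in benthic and 7.85 to 11.1 TPM in littoral livers.

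**Figure D2:**
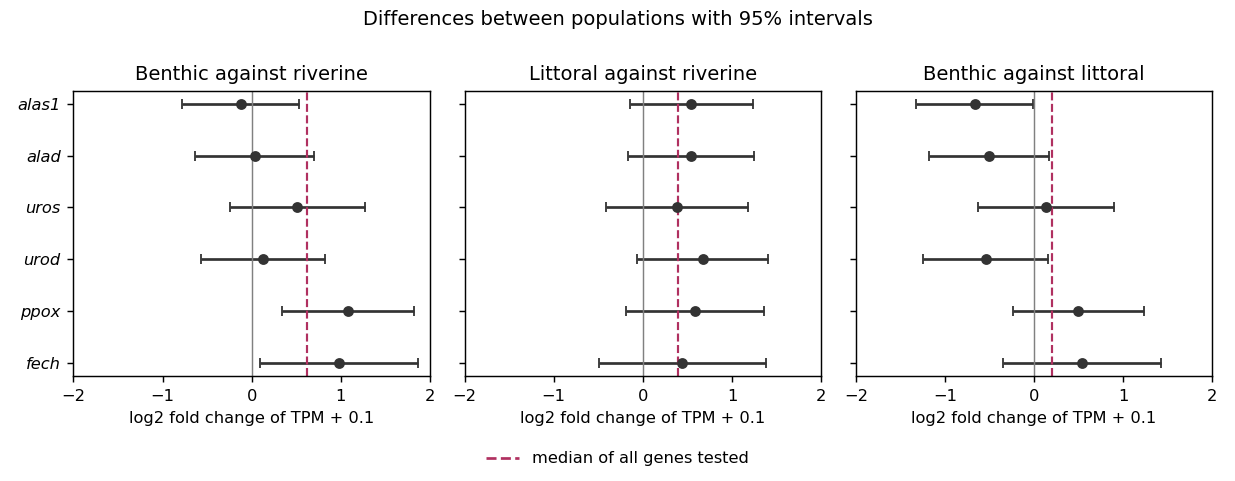
Log2 fold change of TPM + 0.1 (x axis) of each member (y axis) in the 3 comparisons, with 95% intervals from the limma fit of 13 livers. The dashed line is the median of all 21147 genes tested, at 0.62, 0.40 and 0.20, and only *ppox* and *fech* between benthic and riverine livers and *alas1* between benthic and littoral livers have intervals that leave out 0.

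The composition of the pathway within a liver does not depend on how livers are scaled to each other. The summed TPM of the 6 members was 45.1 to 65.1 in benthic, 49.3 to 73.5 in littoral and 40.2 to 60.2 in riverine livers. *ppox* made up 20.7, 23.0, 25.5, 16.8 and 23.9% of it in benthic livers 1 to 5. It made up 6.82, 13.5, 16.2 and 15.9% in littoral livers 1 to 4, and 8.87, 16.9, 9.10 and 14.9% in riverine livers 1 to 4. Every benthic share was above every littoral share, and only benthic liver 4 was below a riverine liver (liver 2). The share of *fech* was 1.99 to 5.37% in benthic, 1.45 to 2.81% in littoral and 1.37 to 3.42% in riverine livers. The share of *alas1* was 22.9 to 45.6% in benthic, 33.6 to 50.98% in littoral and 35.3 to 54.7% in riverine livers.

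The balance of *alas1* to *ppox* can also be read as a ratio, which leaves out the erythroid synthase *alas2*. *alas1* was 0.957 to 2.20 times the level of *ppox* in benthic livers, 2.11 to 7.20 times in littoral livers and 2.09 to 6.17 times in riverine livers. The benthic livers overlapped with the others only at the edge, and the highest littoral ratio was that of liver 1, of the first run. These shares and ratios were chosen after their values were seen and were not tested.

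**Figure D3:**
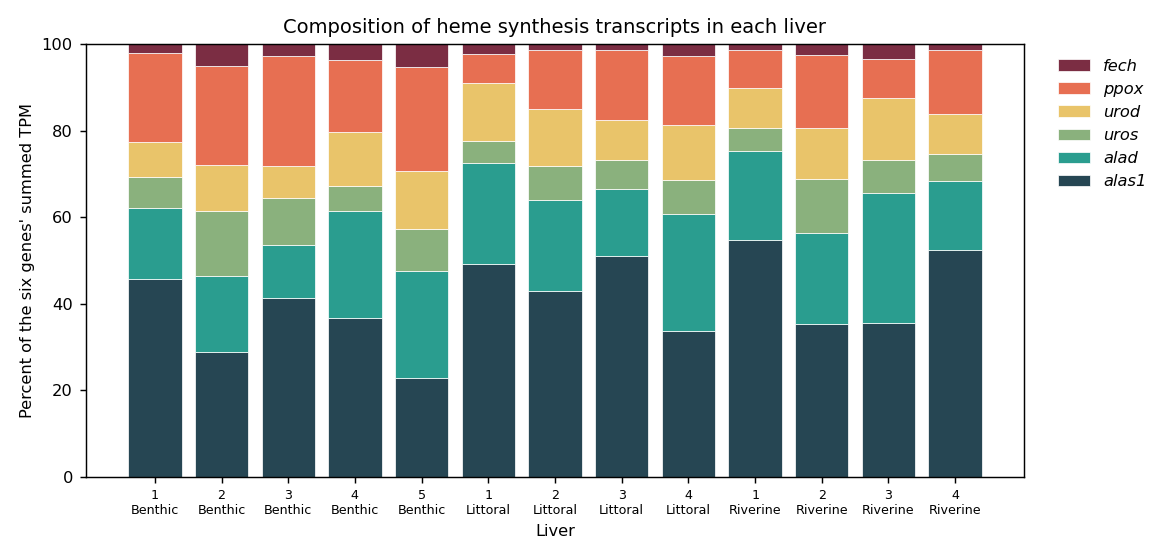
Percent of the summed TPM of the 6 members (y axis) held by each gene in each of 13 livers (x axis, numbered within population). *ppox* makes up 16.8 to 25.5% in benthic livers, 6.82 to 16.2% in littoral livers and 8.87 to 16.9% in riverine livers.

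Across livers, the members did not move as one. *alad* and *urod*, both cytosolic enzymes, tracked each other closely, with a Pearson r of 0.95 of the log2 values over 13 livers (Spearman rho 0.97), 0.93 after removal of the population means, and 0.93 without the 2 livers farthest from the median of *alad*. *alad* was 1.64 to 2.02 times *urod* in benthic livers, 1.59 to 2.14 times in littoral livers and 1.77 to 2.21 times in riverine livers. Of 12843 other genes averaging 1 TPM or more, *urod* was in place 3 by r with *alad*, and *alad* in place 4 by r with *urod*. The 5 genes nearest to *alad* outside the pathway were *selenof*, *psmb2*, a gene listed only by a locus number, *psmc3* and *psma5*, with r between 0.93 and 0.96. Those nearest to *urod* were *psmc3*, *selenof*, *ppp1r14b*, *nagk* and *mcts1*, with r between 0.95 and 0.97. Genes with a symbol that begins with psma, psmb, psmc, psmd or psme, most of which encode subunits or regulators of the proteasome, made up 6 of the 10 nearest genes of *alad* and 3 of 10 for *urod*, of 33 such genes compared. The lists for *alad* and *urod* were added after the values were seen.

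*alas1* followed neither. Its r was 0.19 with *alad*, 0.31 with *urod*, -0.028 with *ppox*, -0.15 with *uros* and -0.39 with *fech*. The 5 genes nearest to it were *mrpl15*, which encodes a protein of the mitochondrial ribosome, *tmem19*, *pigy* and a pair listed only by locus numbers, with r between 0.78 and 0.89. *ppox* and *uros* had an r of 0.75 (rho 0.75, within populations 0.70) in TPM as deposited, at place 1272 among the genes nearest to *ppox*. By level, benthic liver 5 was at place 1 of the 13 livers in *ppox* and place 2 in *uros*. With median-of-ratios scaling it was at places 4 and 9. *fech* had an r of 0.48 with *alad* and 0.53 with *urod*, and within populations these were 0.76 and 0.80. All these correlations, those of *alad* and *urod* included, are descriptions of TPM as deposited over 13 livers that share populations and runs. They were not computed after median-of-ratios scaling, which changed the order of livers. Riverine liver 3, for example, went from place 13 to 6 by level of *alas1* and from place 6 to 2 by level of *alad*. Removal of the population means does not remove differences in scaling between livers.

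**Figure D4:**
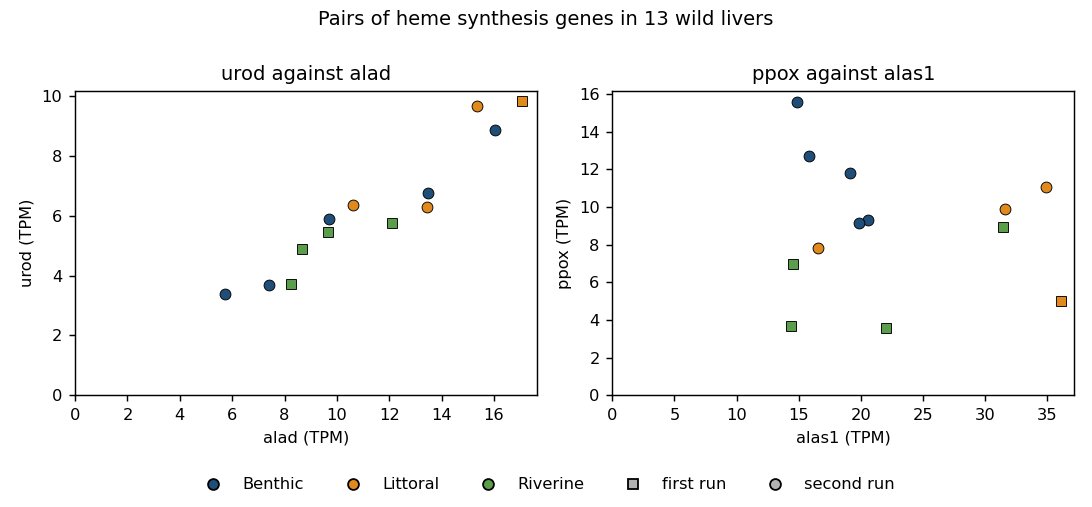
Levels in each of 13 livers of *urod* against *alad* (left) and of *ppox* against *alas1* (right), both axes in TPM, with colours for populations, squares for the first run and circles for the second run. *alad* is 1.59 to 2.21 times *urod* in every liver, whereas *alas1* is 0.957 to 7.20 times *ppox*.

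For 4 members the table lists 1 transcript, and for *uros* and *ppox* it lists 2. The longer *uros* transcript (1229 bases) was above 0 in all 13 livers, and the shorter (1192 bases) in 4. The shorter transcript had 0.880, 5.28, 0.286, 0 and 0 TPM in benthic livers 1 to 5, was listed at 0 in all 4 littoral livers, and had 0.747 TPM in riverine liver 3 and 0 in the other riverine livers. It made up 63.9% of *uros* in benthic liver 2, the liver with the highest *uros* of all. The longer transcript alone had a benthic–riverine log2 fold change of 0.22 (SE 0.38, adjusted p = 0.747 over 28435 transcripts). The shorter *ppox* transcript held at most 6.57% of the gene's level in any liver.

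A liver sample holds blood, so markers of red blood cells were read beside the members. Of 30 erythroid symbols sought, 10 were listed and 9 were tested. *epb41* was at 0 in 11 of 13 livers and *tmcc2* at 0 in 2 riverine livers, and the genes for hemoglobin were not analysed here. The summed level of the list was 17.5, 94.7, 45.7, 12.4 and 99.6 TPM in benthic livers 1 to 5, 4.21 to 6.95 TPM in littoral livers and 8.29 to 15.0 TPM in riverine livers. Every benthic liver was above every littoral liver, and benthic livers 2, 3 and 5 carried most of the difference from riverine livers. Of the 9, 4 were higher in benthic than in riverine livers and passed: *lmo2*, a cofactor that bridges transcription factors in blood formation, *rhag*, a channel of the red cell membrane, and *add2* and *dmtn*, proteins of its cytoskeleton. *gata1*, the master transcription factor of the erythroid lineage, was lower in benthic livers and passed. The count of 5 was 2 without riverine liver 4 and 7 without benthic liver 1 or benthic liver 4. Over all genes tested, 11.2% passed between benthic and riverine livers (9.66% higher and 1.49% lower in benthic livers). Between benthic and littoral livers *lmo2*, *rhag* and *dmtn* were higher in benthic livers and passed, against 0.359% of all genes tested. That count of 3 was 0 without benthic liver 2, 3 or 5 or littoral liver 2, 3 or 4, and 1 without riverine liver 3.

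In TPM as deposited, the livers with the most erythroid RNA also had the highest *ppox*, *uros* and *fech*. In benthic livers 2 and 5, *ppox* was 12.7 and 15.6 TPM, against 9.13 to 11.8 TPM in the other 3 benthic livers. *fech* was 2.75 and 3.50 TPM in benthic livers 2 and 5, against 0.899 to 1.95 TPM in the other 3. *uros* was 8.26 and 6.30 TPM in those livers, against 3.18 to 5.08 TPM. *alas1* ran the other way, with 15.9 and 14.9 TPM in benthic livers 2 and 5 and 19.1 to 20.5 TPM in the other 3. The same livers also had the highest summed leukocyte markers, 810 and 1926.5 TPM, against 162 to 434 TPM in the other benthic livers. Their exocrine pancreas sums were also the highest of the benthic livers, at 540 and 847 TPM against 144 to 394 TPM. The hepatocyte sum of benthic liver 5 was the lowest of all, at 18641 TPM, and that of benthic liver 2 was 27619 TPM. This order of the members depended on the scaling. Benthic livers 2 and 5 had the largest median-of-ratios factors of the benthic livers (1.288 and 1.602), and after division by the factors the highest *ppox* was that of riverine liver 4 (12.1, against 9.86 and 9.71 in benthic livers 2 and 5). The highest *fech* was then that of littoral liver 1 (2.53, against 2.14 and 2.18 in benthic livers 2 and 5), and *uros* stayed highest in benthic liver 2 (6.41) but was 3.93 in benthic liver 5. The erythroid sum stayed highest in benthic livers 2 and 5, at 73.5 and 62.2, and *alas1* stayed lowest among benthic livers there, at 12.3 and 9.29. The fit was also made without benthic livers 2 and 5, a choice made with the values in view. These livers were picked for their high values. Smaller folds of the members and erythroid markers that were high in them, and fewer markers that passed, therefore follow from the choice. The count over all genes was 211 in place of 2359. In it the benthic–riverine log2 fold change was 0.89 for *ppox* (adjusted p = 0.261), 0.51 for *fech* (adjusted p = 0.511), 0.14 for *uros* (adjusted p = 0.86) and 0.024 for *alas1* (adjusted p = 0.988). Of the 9 erythroid markers 0 passed, with log2 fold changes of 2.80 for *lmo2*, 2.64 for *rhag*, 2.18 for *add2*, 1.61 for *dmtn* and -3.74 for *gata1*. The part of blood cells or of other cell types in these levels was not tested. In whole liver a change in the number of cells of a type and in the RNA per cell cannot be told apart.

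**Figure D5:**
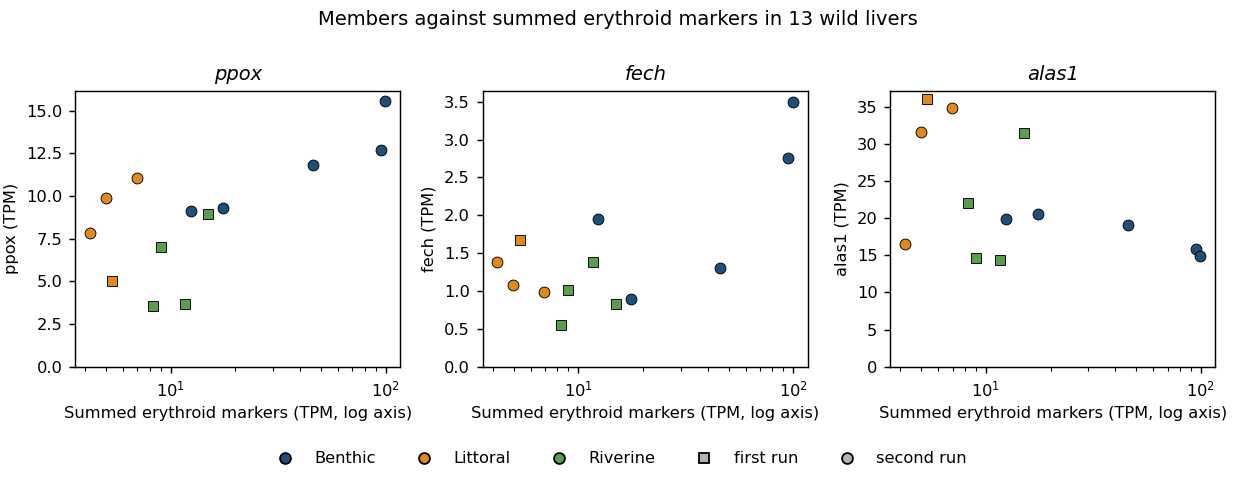
Level of *ppox*, *fech* and *alas1* (y axes, TPM) against the summed level of 10 erythroid marker genes (x axes, TPM, log scale) in 13 livers, with colours for populations, squares for the first run and circles for the second run. The sum includes *gata1*, which is higher in riverine than in benthic livers. In these unscaled values the benthic livers at 94.7 and 99.6 TPM of markers have the highest *ppox* and *fech* of all livers, which median-of-ratios scaling does not keep, and the lowest *alas1* of the benthic livers.

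The pathway draws on mitochondrial supply and iron, and its product is carried, used and broken down by other proteins. Of 4 lists of such genes, 50 were listed by symbol and 47 were tested. Their medians lay below those of all genes between benthic and riverine livers (all genes 0.62): the median log2 fold change was 0.45 over 13 genes of mitochondrial supply and export, 0.076 over 9 of heme traffic and breakdown, -0.0053 over 18 of iron handling and 0.025 over 7 heme-using proteins. Between littoral and riverine livers (all genes 0.40) these medians were 0.15, -0.11, 0.11 and 0.37 in the same order. Between benthic and littoral livers (all genes 0.20) they were 0.12, 0.16, -0.029 and -0.28.

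In mitochondrial supply and export, 0 of 13 genes passed between benthic and riverine livers, 1 between littoral and riverine livers and 0 between benthic and littoral livers. Over all genes tested, 11.2%, 1.46% and 0.359% passed in the same order, and livers did not overlap for 16.7%, 9.63% and 4.01%. The gene of this list that passed was *lonp1*, a mitochondrial protease that degrades ALAS1 in mammals. It was 3.71, 7.24, 5.72 and 8.14 TPM in littoral livers 1 to 4, against 1.46 to 2.34 TPM in riverine livers, with no overlap and a log2 fold change of 1.57 (SE 0.31, adjusted p = 0.026, between 0.0108 and 0.292 over the alternatives). Benthic livers, at 2.76 to 3.80 TPM, were above all riverine livers and overlapped with littoral liver 1. The ATP-binding transporters *abcb6* and *abcb10* and the iron importer *slc25a28* had log2 fold changes of -0.33, 0.71 and 0.46 between benthic and riverine livers, and none passed.

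In iron handling, 1 of 18 genes passed between benthic and riverine livers, 0 between littoral and riverine livers and 1 between benthic and littoral livers. Over all genes tested, 11.2%, 1.46% and 0.359% passed in the same order, and livers did not overlap for 16.7%, 9.63% and 4.01%. *fbxl5*, which senses iron and marks an iron regulatory protein for degradation in mammals, was 3.33 to 9.73 TPM in benthic livers and 1.13 to 4.80 TPM in riverine livers, with a log2 fold change of 1.43 (adjusted p = 0.049, between 0.011 and 0.771 over the alternatives). *ncoa4*, the receptor that delivers ferritin to the lysosome in mammals, was 59.4 to 174 TPM in benthic livers and 21.7 to 37.3 TPM in littoral livers, with no overlap and a log2 fold change of 1.65 (adjusted p = 0.043, between 0.0303 and 0.196). It was also highest in benthic livers 2 and 5, at 109 and 174 TPM. The transferrin receptor gene *tfr2*, the iron exporter gene *slc40a1* and the iron regulatory gene *aco1* had log2 fold changes of -0.12, 0.63 and 0.0015 between benthic and riverine livers, and none passed.

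In heme traffic and breakdown, 0 of 9 genes passed in any comparison (limma), with 2 of 9 at an unadjusted p under 0.05 between benthic and riverine livers, 0 between littoral and riverine livers and 1 between benthic and littoral livers. Over all genes tested, 32.8%, 18.9% and 10.9% met that threshold in the same order. The list includes the heme exporter *flvcr1* and the biliverdin reductases *blvra* and *blvrb*. Among heme-using proteins, 2 of 7 passed between benthic and riverine livers, 1 between littoral and riverine livers and 0 between benthic and littoral livers. The shares of all genes tested that passed were 11.2%, 1.46% and 0.359%, and those without overlap 16.7%, 9.63% and 4.01%. *tdo2*, the tryptophan dioxygenase of liver, was 384 to 862 TPM in benthic livers and 1204 to 1374 TPM in riverine livers, with no overlap and a log2 fold change of -1.32 (adjusted p = 0.024, between 0.0107 and 0.158). *ptgs2*, a cyclooxygenase, was 2.83 to 8.28 TPM in benthic livers and 0.58 to 2.57 TPM in riverine livers, also with no overlap and a log2 fold change of 2.15 (adjusted p = 0.025, between 0.00809 and 0.711). *mb*, the gene for myoglobin, was 6.76 to 10.04 TPM in littoral livers and 40.8 to 119 TPM in riverine livers, with a log2 fold change of -2.87 (adjusted p = 0.0082, between 0.00427 and 0.0573).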

How the data were processed

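Liver RNA of 13 wild males was analysed, and populations were taken from the labels. The labels give ribosomal RNA depletion for the libraries, whereas the methods of the study give a poly(A) fraction. The authors trimmed the reads (Trim Galore), cropped the longer reads of 1 run to 100 bp, ran kallisto with transcripts of the related cichlid *Maylandia zebra* and deposited TPM per transcript and fish, without scaling between libraries. The table holds no read counts, so the depth behind a value is unknown and no counting interval is given. RRBS data were not used here, as no annotation of that build was at hand to place the genes.

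Values of 51012 transcripts were added up within each of 29676 gene symbols. Genes averaging 0.1 TPM or more (21147) entered a linear model of log2(TPM + 0.1), fitted by limma 3.58.1 under R 4.3.3 with trended empirical Bayes moderation. A p-value sets the difference of population means against the spread between these fish within populations. It does not separate population from run or capture. The members, lists and comparisons were chosen with earlier results of these data known. Named genes were all members, list genes that passed (up to 4 in each direction) with list genes that show the range, and the 5 genes nearest to *alas1*. Named list genes outside this rule, were chosen after their values were seen. Lists were drawn up from textbook knowledge and looked up by symbol, and 19698 genes with only a locus number could not be matched. Lists were described by counts and medians. The procedure was tested on simulated livers with independent noise per gene and no difference between runs or libraries. The planted changes were larger than those of any member. The simulation therefore does not show how the fit handles run, a shift of all genes or differences as small as those of the members. Alternatives were other pseudocounts and filters, median-of-ratios scaling, quantile normalization, run as a covariate, pairs fitted alone, other limma settings, transcripts and leaving out each liver. Figures were drawn with matplotlib.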

Additional observations from a re-analysis of the deposited data

Results flagged for a closer look

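The share of *urod* in the summed TPM of the 6 members was 9.28% in littoral liver 3, below the 12.7 to 13.4% of the other 3 littoral livers, a gap large for the range of 4 values. It was the only such value among 36 groups of levels and shares examined, and chance alone gives about 1 in 20 groups.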

How the results depend on the processing

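The count of members that passed stayed at 0 in all 3 comparisons under every alternative run other than leaving out single livers, each transcript tested by itself included. Over the leave-one-out fits it was 0 to 1 between benthic and riverine livers, the 1 being *ppox*. Of 456 alternative values for single members, 432 kept their direction and side of the threshold, 2 passed and 22 changed sign, none of these a called value. Between benthic and riverine livers the sign changed with median-of-ratios scaling for *alad* (-0.57), *urod* (-0.47) and *uros* (-0.0745), with quantile normalization for *alad* (-0.26) and *urod* (-0.31), with run as a covariate for *alas1* (0.33), and without both benthic livers 2 and 5 for *alas1* (0.0239), *alad* (-0.20) and *urod* (-0.16). Leaving out single livers gave -0.27 to 0.11 for *alas1*, -0.14 to 0.22 for *alad* and -0.0526 to 0.29 for *urod*. Between littoral and riverine livers it changed for *fech* with quantile normalization (-0.0840) and for *ppox* with run as a covariate (-0.0956). Between benthic and littoral livers it changed for *uros* with median-of-ratios scaling (-0.0852), quantile normalization (-0.0350) and without both livers (-0.24), with -0.0565 to 0.28 over single livers left out.

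List genes that passed between benthic and riverine livers numbered 3 of 47, and 5 with median-of-ratios scaling, 0 with run as a covariate, 0 without both benthic livers 2 and 5, and 0 to 6 over single livers left out. Between littoral and riverine livers they numbered 2, and 1 with quantile normalization, 1 with pairs fitted alone, 0 with run as a covariate, and 1 to 2 over single livers. Between benthic and littoral livers there was 1, and 0 with a pseudocount of 1, no filter, run as a covariate, pairs fitted alone, livers of the second run only, no trend, or without both livers, and 0 to 2 over single livers. The cause was not tested. Erythroid markers that passed numbered 5, 0 and 3 in the same order of comparisons, and 2 to 7, 0 to 0 and 0 to 4 over single livers left out. Of the list and marker genes that passed, none changed direction.

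Over all genes, 2359 (11.2% of those tested) passed between benthic and riverine livers, 439 to 3548 with single livers left out and 211 to 2727 under the other alternatives. The counts were 308 (1.46%), 100 to 863 and 73 to 506 between littoral and riverine livers, and 76 (0.359%), 2 to 100 and 3 to 125 between benthic and littoral livers. Of the genes that passed, 86.6% were higher in benthic than in riverine livers, and 51.4% with median-of-ratios scaling. The shares were 68.5% and 37.6% higher in littoral than in riverine livers, and 86.8% and 74.7% higher in benthic than in littoral livers. No paired analysis was possible because replicate numbers only name fish, and the planned analyses of CG sites, promoter letters and *alas2* were not run.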

Other observations

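The erythroid list did not move one way. *gata1* was 0.336, 0.392, 0.281, 0.0819 and 0.5004 TPM in benthic livers 1 to 5, 0.0740 to 2.18 TPM in littoral livers and 0.92 to 12.4 TPM in riverine livers, with a log2 fold change of -3.41 between benthic and riverine livers (limma, adjusted p = 0.02, between 0.00561 and 0.101 over the alternatives). *lmo2* was 6.31, 37.2, 15.4, 4.63 and 35.7 TPM in benthic livers 1 to 5 and 0.56 to 2.45 TPM in riverine livers, with a log2 fold change of 3.69 (adjusted p = 0.007, between 0.00568 and 0.0694). *rhag*, *add2* and *dmtn* had log2 fold changes of 3.33, 3.08 and 2.53. Over the alternatives the adjusted p was between 0.00743 and 0.11 for *rhag*, between 0.0122 and 0.265 for *add2*, and between 0.0158 and 0.494 for *dmtn*. Benthic and riverine livers did not overlap for these 5 genes, nor for 16.7% of all genes tested (14.2% higher and 2.52% lower in benthic livers).

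All 11 leukocyte markers had a log2 fold change above that of the median gene between benthic and riverine livers, with a median of 2.12. Of these, 2 passed, against 11.2% of all genes tested (9.66% higher and 1.49% lower in benthic livers). The 2 were *cd79a* (3.27), a part of the B cell receptor, and *lcp1* (2.61), an actin-bundling protein of leukocytes. Benthic liver 5 stood far apart in both, with 63.7 TPM of *cd79a* against 1.36 to 8.07 TPM in the other benthic livers, and 86.6 TPM of *lcp1* against 4.15 to 9.58 TPM. Without it the log2 fold changes were 2.45 for *cd79a* and 1.89 for *lcp1*, and over the alternatives the adjusted p was between 0.0341 and 0.711 for *cd79a* and between 0.0348 and 0.775 for *lcp1*.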
